A study of Mus musculus with 15 samples.

Results

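The 10 glycolysis genes described here are *Slc2a1*, *Hk1*, *Hk2*, *Hk3*, *Pfkl*, *Pfkp*, *Pfkfb3*, *Aldoa*, *Pkm*, and *Ldha*. They were chosen by symbol and matched to the Ensembl identifiers of the deposited count table, where each had 1 row among 19456 genes. All 10 were among the 15802 genes that had enough counts to be tested, and the lowest count of any of them in any library was 1004 (*Pfkp*). RNA was sequenced from 15 libraries of sorted cells of adult wild-type male C57BL/6 mice. Of these, 3 were Ly6Chi monocytes from peripheral blood and 4 each were small intestinal macrophages lacking both Tim-4 and CD4 (Tim-4-CD4-, or DN for double negative), carrying CD4 only (Tim-4-CD4+, or SP for single positive), or carrying both proteins (Tim-4+CD4+, or DP for double positive). Each library came from 3 pooled mice (4 mice for monocyte replicate 2), and the libraries within a population were separate sorts. The p-values therefore measure the spread between pools and not between single animals. Whether libraries of different macrophage subsets were sorted from the same pools is not given in the sources used here. The main fit treated all libraries as independent, so that p-values between subsets are unpaired.

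Glycolysis splits glucose into pyruvate in the cytosol. Glucose enters through facilitative transporters such as the product of *Slc2a1* and is trapped by hexokinases as glucose-6-phosphate. Phosphofructokinase then makes the committed step and is stimulated by fructose-2,6-bisphosphate, the product of *Pfkfb3*. Aldolase splits the resulting sugar, pyruvate kinase makes pyruvate and ATP, and lactate dehydrogenase turns pyruvate into lactate. Macrophages are known to shift the use of this pathway with activation and with the tissue they live in.

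The count table held between 39388763 and 151510641 reads on genes per library, with a median of 63249039. The proteins used for sorting were read from their genes. *Timd4* stood at 336 to 389.9 CPM (the count of a gene scaled to the reads on all genes of a library) in DP libraries and at no more than 4.47 CPM elsewhere, and *Ly6c2* stood at 820 to 1545 CPM in monocytes and at no more than 3.46 CPM in macrophages. *Cd4* stood at 14.5 to 39.2 CPM in DN libraries, at 484 to 598 CPM in SP libraries, and at 752 to 924 CPM in DP libraries. Genes of other cells differed between the blood and gut libraries as well. The summed level of 7 plasma cell genes was 315 to 375 CPM in monocytes and 3034 to 7335 CPM in macrophages, where *Igha* led. In monocytes nearly all of it was *Xbp1*, with a mean of 331 CPM, whereas *Igha* had 1.53 CPM. *Xbp1* was lower in macrophages, with means of 209, 206, and 225 CPM in DN, SP, and DP. Of 10 epithelial genes, 4 (*Epcam*, *Krt19*, *Fabp2*, and *Lgr5*) were at 0 in monocytes, where the sum was 0.554 to 1.74 CPM. It was 9.91 to 27.5 CPM in DN, 16.8 to 18.4 CPM in SP, and 15.6 to 24.7 CPM in DP macrophages. The sum of 8 mesenchymal and endothelial genes, led by *Pecam1*, was 11.9 to 21 CPM in monocytes, 174 to 199 CPM in DN, 248 to 292 CPM in SP, and 385 to 483 CPM in DP macrophages. *Pecam1* alone had means of 15, 104, 185, and 305 CPM in this order. From DN to SP, *Cdh5* (4.58 and 3.33 CPM) and *Kdr* (4.89 and 2.37 CPM) were lower. The other genes of the list were slightly higher, such as *Col3a1* (27.2 and 27.8 CPM, and 46.1 CPM in DP). The sum of 6 monocyte genes, led by *Ccr2* in monocytes, was 8047 to 10967 CPM in monocytes, 603 to 877 CPM in DN, 109 to 215 CPM in SP, and 49.6 to 83.1 CPM in DP macrophages. Other sums were higher in monocytes. The sum of 6 neutrophil and eosinophil genes was 145 to 214 CPM in monocytes and 6.82 to 17.2 CPM in macrophages. *Mmp8* held most of it in monocytes, with a mean of 186 CPM, beside 1.21 CPM for *S100a8* and 0.413 CPM for *S100a9*. *Siglecf*, *Prg2*, and *Retnlg* were higher in macrophages. The sum of 5 erythroid genes was 68.8 to 89.7 CPM in monocytes and 3.75 to 15.5 CPM in macrophages. The part of these genes in the results was not tested. Monocytes were prepared from blood by lysis of red cells and macrophages by enzymatic digestion of the gut wall, so that cell type, tissue, and preparation cannot be told apart in any comparison with monocytes. In such pools of cells, fewer cells that use a gene and less RNA per cell cannot be told apart either.

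Compared with monocytes, the macrophages had less RNA of *Pkm*, *Pfkp*, *Aldoa*, *Hk1*, and *Pfkl* and more of *Pfkfb3* and *Hk3*, in each of the 3 subsets. *Pkm* fell furthest in level, with 1354 ± 265 CPM in the 3 monocyte libraries (SD) and 399 ± 17.5 CPM in the 4 SP libraries, whereas *Pfkfb3* was 3.17-fold higher there. Passing edgeR's quasi-likelihood test at an adjusted p under 0.05 were 7 of the 10 genes in DN macrophages, beside 65.4% of all tested genes. In SP macrophages 7 of 10 passed beside 69.8%, and in DP macrophages 7 of 10 passed beside 70.9%. The count of changed genes was therefore near that of all genes. In each case 5 were lower and 2 were higher, where 28.1%, 30.7%, and 31.3% of all genes were lower and 37.3%, 39.1%, and 39.5% were higher. The median log2 fold change of the 10 genes was -0.11, -0.28, and -0.18 in the same order of subsets, and that of all tested genes was 0.08, 0.11, and 0.10. The same monocyte libraries entered all of these comparisons.

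Between macrophage subsets fewer genes passed the test. From DN to SP macrophages, 2 of the 10 changed beside 10.1% of all genes, with *Hk3* higher (4.52% of all genes) and *Pfkp* lower (5.53%). From SP to DP macrophages, 1 changed beside 3.41%, with *Hk1* lower (1.34% of all genes) and none higher (2.07%). From DN to DP macrophages, 4 changed beside 23.1%, with *Hk3* and *Aldoa* higher (11.3% of all genes) and *Hk1* and *Pfkp* lower (11.9%). *Slc2a1*, *Hk2*, and *Ldha* passed the test in none of the 6 comparisons.

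**Figure D1:**
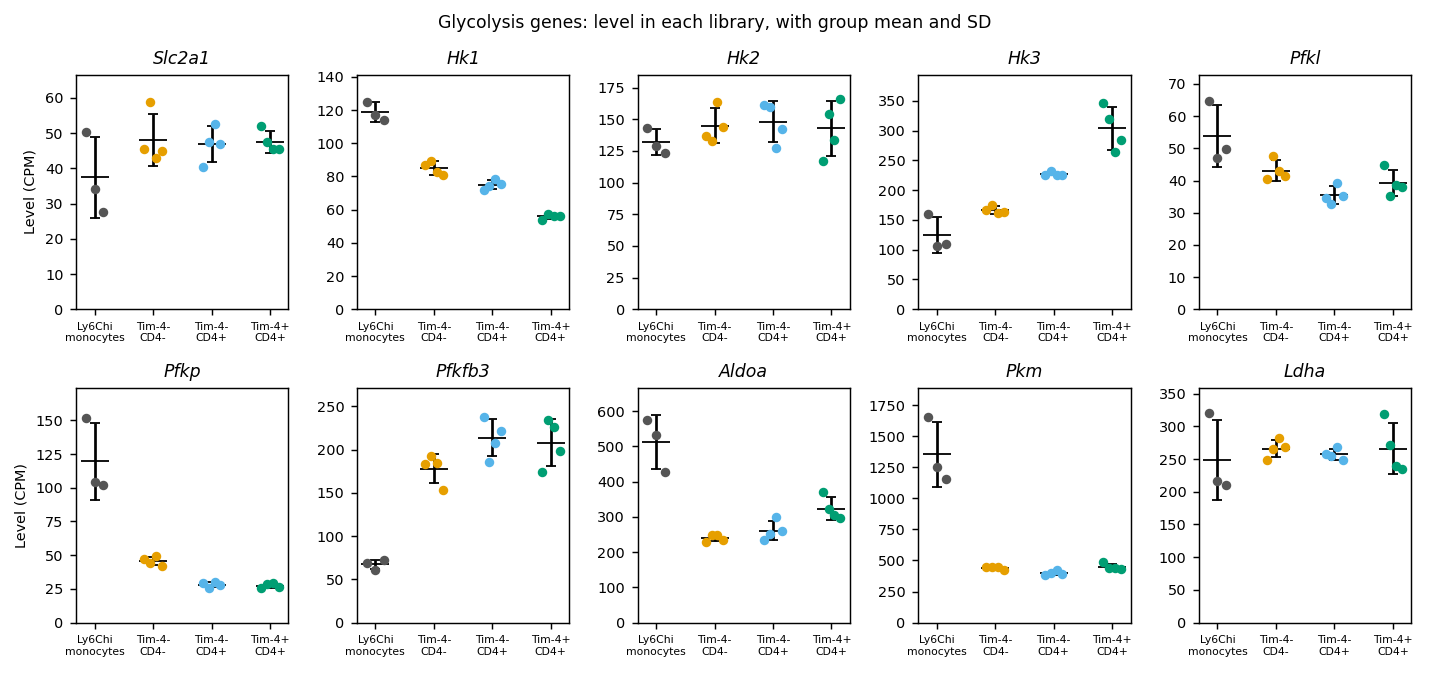
Level (CPM, linear axis from 0) of each of the 10 genes in each library, as points, with the mean of each population as a horizontal line and its SD as error bars. *Pkm* sits between 1156 and 1655 CPM in monocytes and between 383 and 484 CPM in macrophages, whereas the ranges of *Ldha* overlap in all 4 populations.

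**Figure D2:**
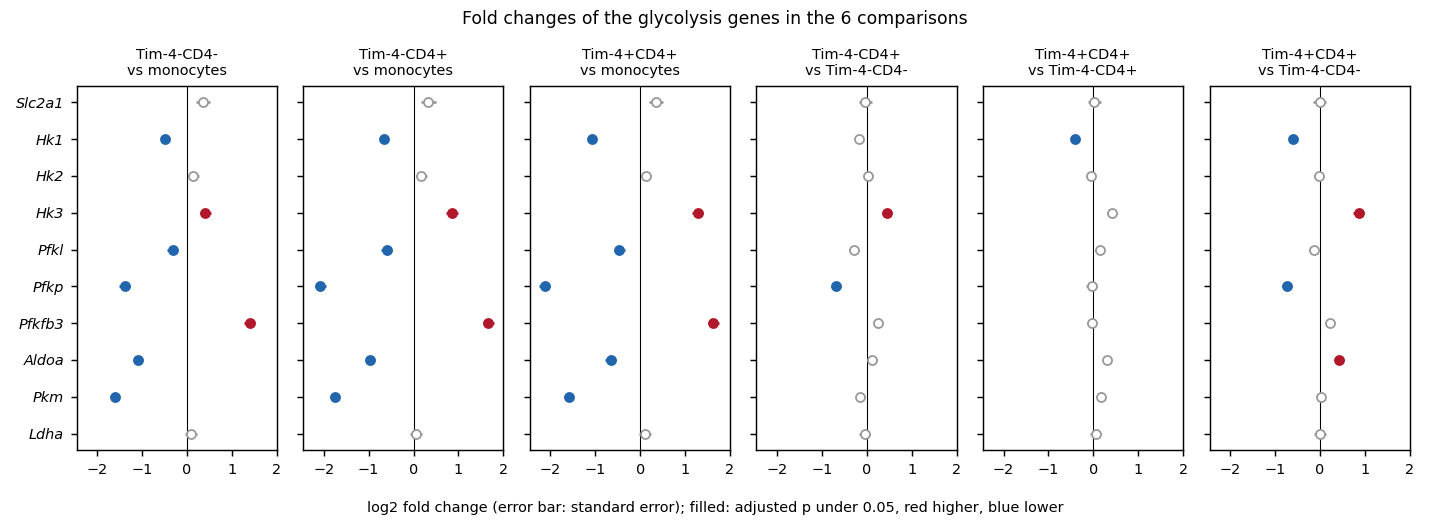
Log2 fold change with its standard error (x axis) of each gene in each of the 6 comparisons, filled where the adjusted p was under 0.05, in red for higher and blue for lower. The fold changes against monocytes reach from -2.13 (*Pfkp*) to 1.66 (*Pfkfb3*), and those between macrophage subsets reach from -0.73 to 0.86.

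The sequence before the start of 5 of the genes is given to show how the promoters of genes that moved in different ways are built. They are the 2 genes that rose in macrophages (*Hk3* and *Pfkfb3*), the gene with the largest fold change downward (*Pfkp*), and 2 that passed the test nowhere (*Ldha* and *Hk2*). Each line holds the 250 bases before an annotated RefSeq start on GRCm38.p6, 5′ to 3′ on the strand of the gene. Capitals mark matches to ACGTG or GCGTG on either strand (CACGT or CACGC when read on the other), the letters that hypoxia-inducible factors are known to bind. Where 2 matches share bases as CACGTG, the core bound by MYC and related proteins, all 6 letters are in capitals. The bases after the *Ldha* start shown were not found in a transcript of the GENCODE annotation. *Pfkfb3* and *Ldha* each had another window, which is not printed. The other *Ldha* window, whose following bases were found in a transcript, held 1 match, CACGC, and neither ACGTG nor CACGTG. That of *Pfkfb3* held 1 match, ACGTG, and no CACGTG.
Hk3, chr13:55021386-55021635, minus strand: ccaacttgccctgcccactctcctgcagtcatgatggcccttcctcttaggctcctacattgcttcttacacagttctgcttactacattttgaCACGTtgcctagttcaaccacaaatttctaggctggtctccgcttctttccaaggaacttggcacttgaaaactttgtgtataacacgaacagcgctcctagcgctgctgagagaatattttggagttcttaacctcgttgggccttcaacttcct
Pfkfb3, chr2:11502091-11502340, minus strand: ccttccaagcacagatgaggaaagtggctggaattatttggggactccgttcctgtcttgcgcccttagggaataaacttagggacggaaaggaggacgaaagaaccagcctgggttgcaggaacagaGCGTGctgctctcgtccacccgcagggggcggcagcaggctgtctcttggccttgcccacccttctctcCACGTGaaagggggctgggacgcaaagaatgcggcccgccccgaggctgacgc
Pfkp, chr13:6648772-6649021, minus strand: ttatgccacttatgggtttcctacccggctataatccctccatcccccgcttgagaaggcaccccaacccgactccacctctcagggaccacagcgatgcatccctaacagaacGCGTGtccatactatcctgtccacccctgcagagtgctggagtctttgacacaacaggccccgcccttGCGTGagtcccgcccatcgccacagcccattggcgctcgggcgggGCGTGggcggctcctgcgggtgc
Ldha, chr7:46845554-46845803, plus strand: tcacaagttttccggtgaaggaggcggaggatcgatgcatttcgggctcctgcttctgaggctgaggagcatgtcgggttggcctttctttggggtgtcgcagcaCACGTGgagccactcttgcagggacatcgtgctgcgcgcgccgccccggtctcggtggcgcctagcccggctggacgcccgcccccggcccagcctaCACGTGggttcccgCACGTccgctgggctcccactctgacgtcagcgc
Hk2, chr6:82774455-82774704, minus strand: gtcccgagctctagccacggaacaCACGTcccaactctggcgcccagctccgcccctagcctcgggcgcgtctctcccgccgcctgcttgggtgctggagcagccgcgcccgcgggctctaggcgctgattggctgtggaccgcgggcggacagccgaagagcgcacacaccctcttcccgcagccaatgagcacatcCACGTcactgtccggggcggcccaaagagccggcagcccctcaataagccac

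All 10 genes had at least 1 such window, 16 in all. ACGTG was present in a window of 7 of them (*Slc2a1*, *Hk2*, *Hk3*, *Pfkfb3*, *Aldoa*, *Pkm*, and *Ldha*), and in 18.5% of 27025 genes. By window, it was present in 9 of the 16 and in 16.6% of the 32851 of all genes. Overlapping windows of *Aldoa* share the same match. Genes with more windows have more room for a match. GCGTG was present in 6 (*Slc2a1*, *Hk1*, *Pfkl*, *Pfkp*, *Pfkfb3*, and *Ldha*) and in 30.9% of genes. CACGTG, which contains ACGTG, was present in *Pfkfb3* and *Ldha* and in 6.86% of genes, and GGGCGG, the core bound by SP1, was present in 7 and in 35.4% of genes. *Ldha* held ACGTG and CACGTG only in the window printed above, whose following bases were not found in a transcript. The median GC content of the windows was 62.8% for the 10 genes and 52.4% for all genes. ACGTG was thus present before 3 genes that passed the test nowhere, 2 that were higher, and 2 that were lower in macrophages, and a match is not a measured binding site.

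*Slc2a1* (chromosome 4, 119108711 to 119137983 on GRCm38, plus strand) encodes GLUT1, the main basal glucose transporter of many cells. Its level was 50.3, 34.2, and 27.7 CPM in the monocyte libraries. In macrophages it was 45.5, 58.9, 42.8, and 44.8 CPM (DN), 40.5, 47.5, 52.7, and 47.0 CPM (SP), and 52.0, 47.5, 45.4, and 45.4 CPM (DP). Monocyte replicate 1 lay within the range of the macrophages and the other monocytes lay below all 12 macrophage libraries. The log2 fold changes of 0.36, 0.33, and 0.35 (SE 0.163 each) did not pass the test (edgeR adjusted p = 0.064, 0.085, and 0.068). Without monocyte replicate 1 they were 0.66, 0.63, and 0.65 and passed it (edgeR adjusted p = 0.0012, 0.0014, and 0.001). They also passed under 6 settings that kept all libraries (RLE and upper-quartile scaling, a mean of at least 1 CPM, thinned counts, a block by description number, and DESeq2), with adjusted p of 0.014 to 0.049. Of the 24 alternatives that kept the threshold on p alone, 8, 7, and 8 called *Slc2a1* in DN, SP, and DP macrophages. Among the subsets, the means lay between 46.9 and 48.0 CPM.

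The 3 hexokinases differed in direction. *Hk1* (chromosome 10, 62268855 to 62379908, minus strand), which encodes the widely expressed isozyme bound to mitochondria, stepped down from population to population. Monocytes had 125, 117, and 114 CPM and DN macrophages had 87.0, 89.6, 82.7, and 80.7 CPM. SP macrophages had 71.6, 74.4, 78.5, and 75.7 CPM and DP macrophages had 53.9, 57.6, 56.2, and 56.4 CPM. No library of one population overlapped the range of another. Against monocytes *Hk1* fell by 0.48 ± 0.0721 (log2 ± SE), by 0.66 ± 0.072, and by 1.08 ± 0.072 in the 3 subsets (edgeR adjusted p = 1.9e-05, 4.3e-07, and 7.7e-10), the last a 2.12-fold difference. It was also lower in DP than in SP macrophages (log2 -0.42, edgeR adjusted p = 0.001) and than in DN macrophages (log2 -0.60, adjusted p = 5.8e-06). The step from DN to SP macrophages, -0.18 ± 0.0672, did not pass (edgeR adjusted p = 0.11).

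*Hk3* (chromosome 13, 55005985 to 55021385, minus strand) encodes the hexokinase best known from blood and myeloid cells, which lacks the mitochondrial binding stretch of the other isozymes. It stepped up where *Hk1* stepped down. The monocyte libraries held 160.0, 106, and 109.9 CPM and the DN libraries 167, 176, 161, and 164 CPM. The SP libraries held 226, 232, 226, and 226 CPM and the DP libraries 346, 319, 265, and 285 CPM. Again no ranges overlapped, although monocyte replicate 1 and the lowest DN library were 160.0 and 161 CPM. The log2 fold changes against monocytes were 0.41 ± 0.127, 0.86 ± 0.128, and 1.28 ± 0.13 (edgeR adjusted p = 0.0089, 1.6e-05, and 1.8e-07). The last was 2.42-fold. DP macrophages had 1.82-fold more *Hk3* RNA than DN macrophages (log2 0.86 ± 0.117, edgeR adjusted p = 4.3e-05). Between neighbouring subsets, the increase from DN to SP (0.45 ± 0.116) passed with edgeR adjusted p = 0.021. This call was lost without any of 5 single libraries (DN replicate 1, 3, or 4 or SP replicate 2 or 4), at 0.054 to 0.068. The increase from SP to DP (0.42 ± 0.116, adjusted p = 0.064) did not pass, although it did under 9 of 24 alternatives.

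*Hk2* (chromosome 6, 82725025 to 82774454, minus strand) encodes the inducible isozyme of muscle, fat, and activated cells. Monocytes held 143, 129, and 123 CPM. Macrophages held 137, 133, 164, and 144 CPM (DN), 161, 160.0, 127, and 142 CPM (SP), and 117, 154, 134, and 166 CPM (DP). The ranges overlapped in every pair of populations, and the largest of its 6 log2 fold changes was 0.17 (edgeR adjusted p = 0.24). It passed the test under none of 24 alternatives in any comparison.

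Because counts grow with transcript length, the makeup of the family was read from counts per kilobase of the principal transcript. *Hk3* made up 41.2 ± 4.21% of the 3 hexokinases in monocytes (SD, n = 3), 51.8 ± 1.72% in DN, 60.5 ± 1.01% in SP, and 69.9 ± 3.89% in DP macrophages (SD, n = 4 each). *Hk1* made up 33.2 ± 2.67%, 22 ± 0.865%, 16.7 ± 0.981%, and 10.8 ± 0.938% in the same order. The union of all exons is 8532 bases for *Hk1*, against 3851 for the principal transcript. The size of these shares therefore depends on the length chosen. The share of *Hk1* differed by -11.1, -16.5, and -22.3 percentage points from monocytes in the 3 subsets, where the exact permutation test gave p = 0.057, the smallest possible with 3 against 4 libraries. Between subsets it differed by -5.35 points (SP from DN), -5.83 points (DP from SP), and -11.2 points (DP from DN), each with an exact permutation p = 0.029, the smallest possible with 4 against 4. After adjustment over the 6 pairs every p was 0.057, so that no pair could pass.

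**Figure D3:**
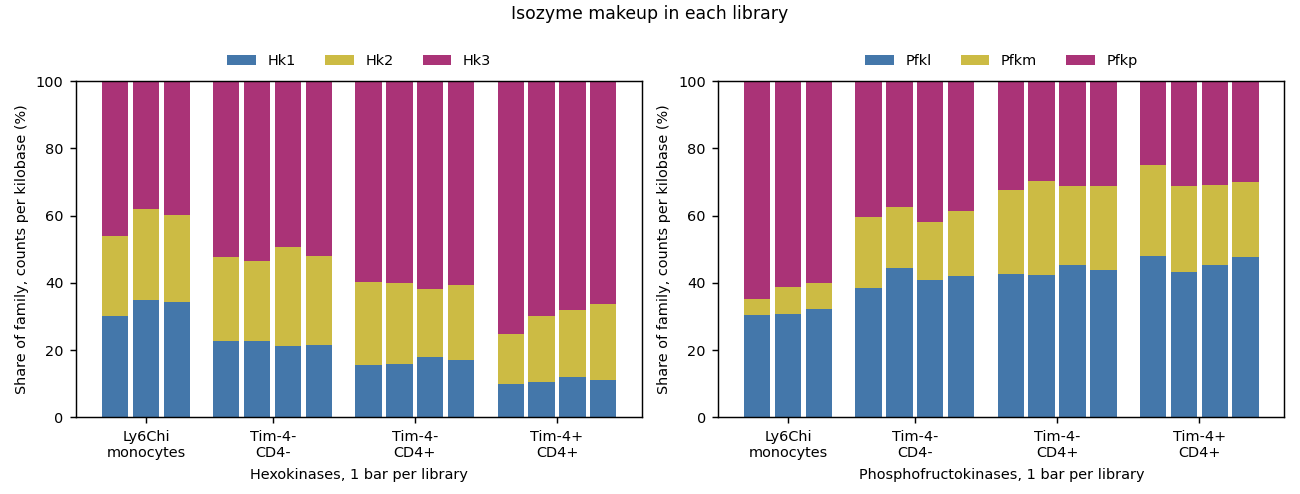
Share (%) of each isozyme in the summed counts per kilobase of the hexokinases (left) and phosphofructokinases (right), with 1 stacked bar per library grouped by population. The *Hk3* share averages 41.2% in monocytes and 69.9% in DP macrophages, and the *Pfkp* share averages 62.0% and 29.2%.

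The phosphofructokinases and *Pfkfb3* also moved apart. *Pfkp* (chromosome 13, 6579768 to 6648777, minus strand), the platelet-type subunit, had the largest fold change of the 10 genes. Its level was 152, 104, and 102 CPM in monocytes and 46.9, 44.2, 49.2, and 42.0 CPM in DN macrophages. It was 29.4, 25.4, 30.1, and 27.9 CPM in SP and 25.5, 28.3, 29.3, and 26.5 CPM in DP macrophages. All macrophage libraries lay below all monocytes, DN libraries lay above both other subsets, and those overlapped each other. *Pfkp* was 2.62-fold, 4.24-fold, and 4.36-fold lower than in monocytes (log2 -1.39 ± 0.122, -2.08 ± 0.124, and -2.13 ± 0.124, edgeR adjusted p = 3.5e-08, 1.9e-10, and 1.3e-10). Without monocyte replicate 1 the log2 values were -1.15, -1.84, and -1.88. It was 1.62-fold lower in SP and 1.66-fold lower in DP than in DN macrophages (edgeR adjusted p = 0.00083 and 0.00018).

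*Pfkl* (chromosome 10, 77986947 to 78010083, minus strand), the liver-type subunit, changed less. Monocytes had 64.7, 47.0, and 49.8 CPM. The subsets had 40.4, 47.5, 43.0, and 41.3 CPM (DN), 34.7, 32.6, 39.3, and 35.2 CPM (SP), and 44.7, 35.3, 38.7, and 37.9 CPM (DP). Monocyte replicate 1 stood above all other libraries, and the range of monocytes met that of DN macrophages only. The log2 fold changes were -0.32 ± 0.114, -0.60 ± 0.114, and -0.46 ± 0.114 (edgeR adjusted p = 0.021, 0.00018, and 0.0018). The first was -0.14 without monocyte replicate 1 (edgeR adjusted p = 0.29) and did not pass without DN replicate 1, 3, or 4 (0.054 to 0.074) or with upper-quartile scaling (-0.26, adjusted p = 0.068) either. The others were -0.42 and -0.27 without that monocyte library and still passed (edgeR adjusted p = 0.0041 and 0.043). No difference between subsets passed the test.

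*Pfkm*, the muscle-type subunit, is not among the 10 genes and was read to complete the family. It rose from 8.71 ± 0.84 CPM in monocytes (SD, n = 3) to 15.2 ± 1.33, 15.9 ± 0.533, and 16.2 ± 2.4 CPM in the subsets (SD, n = 4), by 0.80, 0.87, and 0.90 on the log2 scale. Per kilobase, *Pfkp* made up 62.0 ± 2.49% of phosphofructokinase in monocytes, 39.5 ± 2.08% in DN, 31.1 ± 1.15% in SP, and 29.2 ± 3.03% in DP macrophages. *Pfkl* made up 31.3 ± 0.976%, 41.5 ± 2.44%, 43.5 ± 1.32%, and 46.1 ± 2.27% in the same order. The *Pfkl* share was thus larger in macrophages although its level was lower. Its share differed by 10.3 to 14.9 percentage points from monocytes (exact permutation p = 0.057 for each subset, the smallest possible, 0.086 after adjustment over 6 pairs) and by 1.94 to 4.6 points between subsets (adjusted 0.086 to 0.23). The union of all exons is 13401 bases for *Pfkp*, against 4145 for the principal transcript, and 6675 against 3730 for *Pfkl*. The size of these shares therefore depends on the length chosen as well.

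*Pfkfb3* (chromosome 2, 11471433 to 11554077, minus strand) encodes the enzyme that makes fructose-2,6-bisphosphate with little of the reverse activity, and it rose in all macrophages. Monocytes held 69, 61.3, and 71.8 CPM. DN macrophages held 183, 193, 184, and 153 CPM, SP macrophages 238, 186, 208, and 222 CPM, and DP macrophages 174, 234, 226, and 199 CPM. Every macrophage library was above every monocyte library, and the subsets overlapped one another. The rise was 2.64-fold, 3.17-fold, and 3.09-fold (log2 1.40 ± 0.122, 1.66 ± 0.123, and 1.63 ± 0.123, edgeR adjusted p = 3e-08, 3.3e-09, and 4.1e-09). The differences of SP from DN (log2 0.26), DP from SP (-0.04), and DP from DN macrophages (0.22) did not pass the test (edgeR adjusted p = 0.15, 0.9, and 0.16).

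In the lower part of the pathway, *Aldoa* and *Pkm* were lower in macrophages, and *Ldha* did not pass the test against monocytes. *Aldoa* (chromosome 7, 126795234 to 126800751, minus strand), the main aldolase of most tissues, had 575, 531, and 426 CPM in monocytes. It had 229.8, 247, 247, and 234 CPM in DN, 234, 252, 299, and 259.5 CPM in SP, and 370.0, 322, 305, and 297 CPM in DP macrophages. All macrophage libraries lay below all monocytes, and DP libraries lay above all DN libraries. *Aldoa* was 2.13-fold, 1.96-fold, and 1.58-fold lower than in monocytes (log2 -1.09, -0.97, and -0.66, each with SE 0.112, edgeR adjusted p = 2.4e-07, 9e-07, and 6e-05). It was 1.35-fold higher in DP than in DN macrophages (log2 0.43 ± 0.105, edgeR adjusted p = 0.0062), and this passed under 24 of 24 alternatives on the p-value alone, with log2 values of 0.37 to 0.49, but not when a change of at least 2-fold was also required. The difference of 0.31 between DP and SP macrophages did not pass (edgeR adjusted p = 0.15).

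*Pkm* (chromosome 9, 59656368 to 59679375, plus strand) encodes pyruvate kinase M, whose M1 and M2 forms come from alternative exons and are counted together here. Its level was 1655, 1252, and 1156 CPM in monocytes. It was 449, 449.8, 446, and 426 CPM in DN, 383, 402, 422, and 388 CPM in SP, and 484, 441, 438, and 434 CPM in DP macrophages. The lowest monocyte library was above the highest macrophage library. *Pkm* was 3.06-fold, 3.4-fold, and 3.01-fold lower (log2 -1.61, -1.76, and -1.59, each with SE 0.104, edgeR adjusted p = 6.5e-10, 1.7e-10, and 6e-10). Without monocyte replicate 1 the log2 values were -1.42, -1.56, and -1.39. The SP libraries all lay below those of both other subsets, but these differences of -0.15 and 0.17 did not pass the test (edgeR adjusted p = 0.4 and 0.44).

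*Ldha* (chromosome 7, 46841475 to 46855627, plus strand), the lactate dehydrogenase subunit that favours lactate, had 319.7, 217, and 210.4 CPM in monocytes. It had 249, 265, 282, and 268 CPM in DN, 258, 255, 268, and 249 CPM in SP, and 319, 271, 239.7, and 235 CPM in DP macrophages. The ranges overlapped in every pair. Its log2 fold changes against monocytes were 0.10, 0.05, and 0.10 (edgeR adjusted p = 0.55, 0.76, and 0.53). Monocyte replicate 1 alone stood high in its group, and without it the values were 0.34, 0.30, and 0.35 and passed (edgeR adjusted p = 0.022, 0.038, and 0.017). *Ldha* passed under no other of the 24 alternatives.

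That library had the highest value of its group in 9 of the 10 genes, all except *Pfkfb3*, and in 45.8% of all tested genes. Among the other groups, DP replicate 1 was highest in 6 of the 10 genes and in 35.9% of all genes. It was also the library with most *Igha* RNA, at 4667 CPM. Without it, the *Hk3* difference between DP and DN macrophages was 0.80 (edgeR adjusted p = 0.00011) and the *Aldoa* difference 0.37 (adjusted p = 0.016). The spread within groups was small for *Hk1* (coefficient of variation 2.7% to 4.99%) and large in monocytes for *Slc2a1* (31.1%), *Ldha* (24.6%), *Hk3* (24%), and *Pfkp* (23.9%). The summed level of the 10 genes was 2768 ± 484 CPM in monocytes (SD, n = 3). It was 1659.6 ± 52.3, 1692 ± 40.0, and 1864 ± 102 CPM in DN, SP, and DP macrophages (SD, n = 4).

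Levels per kilobase of transcript allowed the genes to be compared with one another. In monocytes *Pkm* led with 557 ± 109 CPM per kilobase (SD, n = 3), followed by *Aldoa* with 338 ± 50.6 and *Ldha* with 141 ± 34.7. *Hk3* (38.9), *Hk1* (30.8), *Pfkp* (28.8), and *Hk2* (23.9) came next, and *Pfkfb3* (14.5), *Pfkl* (14.4), and *Slc2a1* (11.5) were lowest. The libraries overlapped between *Hk1* and *Pfkp*, *Pfkp* and *Hk2*, *Pfkfb3* and *Pfkl*, and *Pfkl* and *Slc2a1*, so that these neighbours were not separated. In DN macrophages *Pkm* still led with 182 ± 4.61 CPM per kilobase (SD, n = 4), ahead of *Aldoa* (159) and *Ldha* (151), which overlapped.

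In both CD4+ subsets *Aldoa* came before *Pkm*, with 173 and 164 CPM per kilobase in SP and 214 and 185 in DP macrophages, but the libraries of the 2 genes overlapped. *Ldha* followed at 146 and 151. In every macrophage subset *Hk3* and *Pfkfb3* took the next places, with 51.9 and 38.5 CPM per kilobase in DN, 70.8 and 46.1 in SP, and 94.4 and 44.9 in DP macrophages, and neither overlapped its neighbours. By principal transcript length, *Pfkfb3* was the eighth of the 10 in monocytes and the fifth in every subset. *Pfkp* was the sixth in monocytes and the last in every subset (11, 6.81, and 6.61), overlapping *Pfkl* in DN macrophages. The union of all exons is longer, at 7561 against 4634 bases for *Pfkfb3* and 13401 against 4145 for *Pfkp*. The order of the genes can therefore depend on the length chosen, and it was not read with union lengths.

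**Figure D4:**
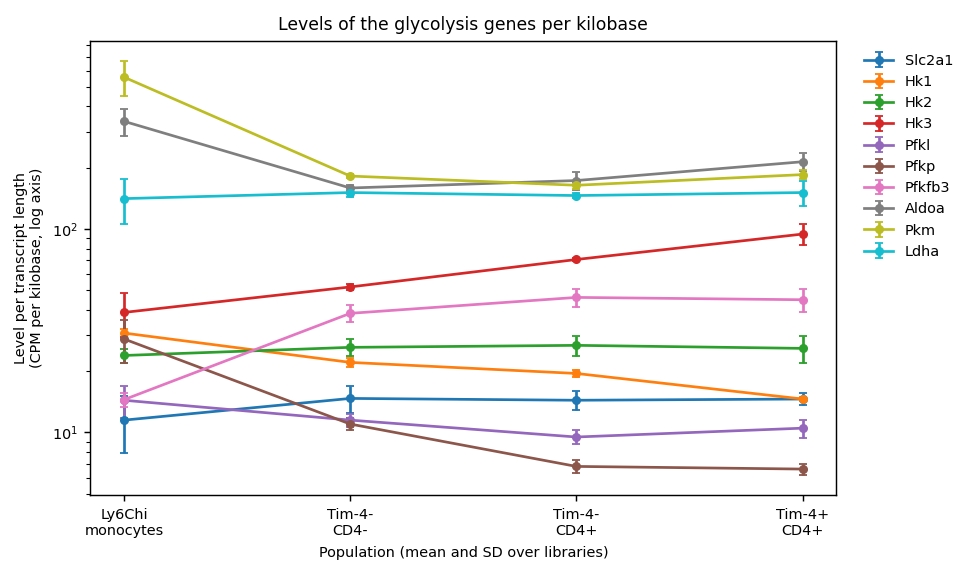
Level per kilobase of principal transcript (CPM per kilobase, log axis) of the 10 genes in the 4 populations, as the mean with its SD over libraries and lines joining 1 gene. *Pkm* goes from 557 in monocytes to 182, 164, and 185 in the subsets, while *Pfkfb3* goes from 14.5 to 38.5, 46.1, and 44.9.

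The other enzymes of the pathway were read from a list of 18, of which 16 could be tested. Of these, 9 were lower than in monocytes in every subset, and 5, 7, and 7 were higher in DN, SP, and DP macrophages. Their median log2 fold changes were -0.47, -0.61, and -0.54. Beside this list and each list below, 37.3%, 39.1%, and 39.5% of all tested genes were higher than in monocytes in DN, SP, and DP macrophages. Lower were 28.1%, 30.7%, and 31.3% of all tested genes. *Eno1*, an enolase, stood at 765 ± 121 CPM in monocytes (SD, n = 3) and at 191 ± 16.4, 143 ± 10.4, and 149 ± 27.5 CPM in the subsets (SD, n = 4), a fall by 2.00, 2.42, and 2.36 on the log2 scale. *Ldhb*, the lactate dehydrogenase subunit of oxidative tissues, fell from 20.7 ± 1.32 CPM to 4.38, 2.59, and 0.711 CPM. It was also lower at each step between subsets (log2 -0.76 and -1.83). *Pklr*, the liver and red cell pyruvate kinase, had no counts in monocytes, and its level of 0.252, 0.657, and 0.923 CPM was at least 25-fold, 65.2-fold, and 91.6-fold higher than the level of 3 counts over the monocyte group.

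Between subsets, 8 of these 16 enzymes passed the test in at least 1 comparison, beside 24.2% of all tested genes. In the lists below it was 1 of 4 for fructose-2,6-bisphosphate, 5 of 10 transporters, 4 of 8 pentose phosphate genes, and 6 of 13 for pyruvate entry. It was 2 of 16 in the tricarboxylic acid cycle, 3 of 12 for gluconeogenesis and glycogen, 6 of 22 for hypoxia, and 2 of 11 regulators. *Gpi1* (glucose-6-phosphate isomerase), *Tpi1* (triosephosphate isomerase), and *Pgam1* (phosphoglycerate mutase) were lower in DP than in DN macrophages, by -0.42, -0.41, and -0.48 on the log2 scale. *Eno1* was lower in SP than in DN macrophages (log2 -0.42, edgeR adjusted p = 0.04). *Adpgk*, the ADP-dependent glucokinase, was higher in DP macrophages, at 53.8 ± 6.31 against 38.8 ± 2.63 CPM (SD, n = 4; log2 0.47). *Pklr* was also higher, at far lower levels (0.923 against 0.252 CPM, log2 1.84). Among the epithelial genes, *Fabp1* (0.66, 2.17, and 2.36 CPM), *Fabp2* (1.1, 3.31, and 3.77), and *Vil1* (1.9, 4.14, and 4.21) also rose from DN to SP and DP. *Epcam* (4.26, 1.68, and 1.53 CPM) and *Cdh1* (3.68, 0.558, and 0.686) were lower in SP and DP than in DN. Whether *Pklr* RNA came from epithelial cells was not tested. Among the enzymes that passed, *Ldhb* had the largest difference in size, at -2.59 (edgeR adjusted p = 1.1e-06).

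**Figure D5:**
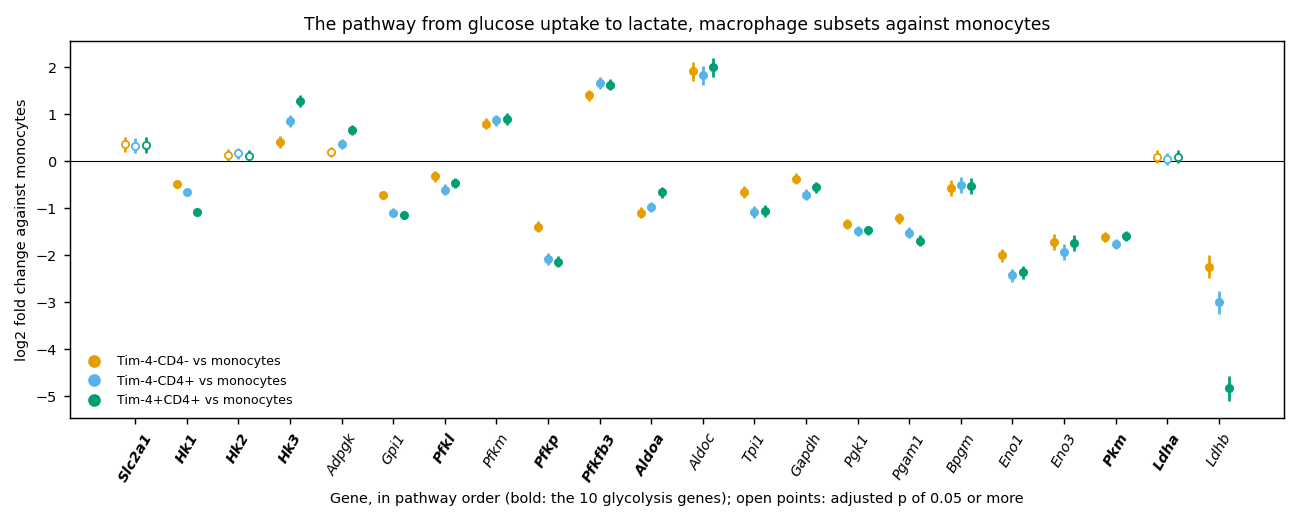
Log2 fold change of each subset against monocytes (y axis) for the genes from glucose uptake to lactate in pathway order, with the 10 genes in bold and open points for an adjusted p of 0.05 or more. *Pfkfb3* and *Hk3* lie above 0 in all 3 subsets, and *Pkm*, *Pfkp*, *Aldoa*, *Eno1*, and *Ldhb* lie below it.

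The other enzymes that set the level of fructose-2,6-bisphosphate did not share the rise of *Pfkfb3* as a group. Of 4 tested, 1, 2, and 1 were higher and 2, 1, and 1 were lower in the 3 subsets. *Pfkfb1* rose from 0.476 ± 0.182 to 1.62, 1.69, and 1.91 CPM, and *Pfkfb4* fell from 145 ± 8.63 to 109.8, 107, and 106 CPM. *Tigar*, which breaks down fructose-2,6-bisphosphate, was higher in DP than in DN macrophages (12.2 against 7.92 CPM, log2 0.63, edgeR adjusted p = 0.00079).

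Among 10 tested transporters of glucose, lactate, and glucose-6-phosphate other than *Slc2a1*, 6, 6, and 4 were higher and 2, 2, and 3 were lower than in monocytes. *Slc16a3*, the lactate exporter MCT4, fell from 90.9 ± 5.15 CPM to 12, 5.02, and 4.51 CPM (log2 -2.91, -4.17, and -4.32). *Slc2a6*, a glucose transporter of leukocytes, fell from 103 ± 6.71 to 21.7, 7.76, and 6.31 CPM. *Slc37a2*, a glucose-6-phosphate exchanger of macrophages, rose from 13.4 ± 0.922 to 113, 142, and 155 CPM (log2 3.08, 3.40, and 3.53), and *Slc2a8* rose from 5.21 to 13.9, 14.4, and 16.7 CPM. Between the subsets at either end, *Slc2a3* (log2 -1.31), *Slc2a6* (-1.78), *Slc16a1* (-1.58), and *Slc16a3* (-1.41) were lower and *Slc37a2* (0.45) higher in DP than in DN macrophages.

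The pentose phosphate pathway branches off at glucose-6-phosphate and makes NADPH. All 8 of its tested genes were lower in each subset than in monocytes, with medians of -0.95, -1.38, and -1.30. *G6pdx*, its first enzyme, stood at 435 ± 67.4 CPM in monocytes and at 124, 107, and 107 CPM in the subsets, and *Pgd* at 551 ± 58.0 CPM and at 164, 150.4, and 159 CPM. From DN to DP macrophages *Tkt* (log2 -0.40) and *Rpia* (-0.31) were lower and *H6pd* (0.37) was higher, and *Pgls* was lower in SP than in DN macrophages (-0.48).

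For the entry of pyruvate into mitochondria, 3 of 13 genes were higher in every subset and 5, 7, and 7 were lower. *Pdha1*, a subunit of pyruvate dehydrogenase, fell from 139 ± 6.65 to 79.2, 67.1, and 59.4 CPM, and *Mpc1*, of the pyruvate carrier, from 19.1 to 11.6, 10.1, and 9.96 CPM. *Pcx*, pyruvate carboxylase, rose from 0.385 to 4.11, 5.4, and 6.9 CPM. *Pdk4*, a kinase that turns pyruvate dehydrogenase off, had no counts in monocytes and was at least 15.9-fold, 20.7-fold, and 104-fold higher in the subsets, at 0.16, 0.209, and 1.05 CPM. It was higher in DP than in DN macrophages by 2.67 on the log2 scale. *Pdk1*, *Pdk3*, *Pdp1*, *Pdha1*, and *Pcx* also changed between subsets.

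In the tricarboxylic acid cycle, 9 of 16 genes were lower in each subset, 8 of them the same in all 3, and 2, 1, and 1 were higher, with medians of -0.25, -0.26, and -0.35. *Cs*, citrate synthase, fell by 0.57, 0.80, and 0.92 and *Sucla2* by 0.60, 0.73, and 0.86 on the log2 scale, whereas *Fh1*, fumarase, rose by 0.60, 0.41, and 0.45. *Cs* and *Idh3a* were the 2 that changed between subsets. Of 12 tested genes of gluconeogenesis and glycogen, 3 were higher in each subset and 6, 7, and 6 were lower. *Pygl*, the liver glycogen phosphorylase, fell from 360.0 ± 32.8 CPM to 28.7, 9.11, and 2.06 CPM, and *Ugp2* from 86.0 to 48.7, 47.4, and 45.2 CPM. *Pygb*, the brain form, rose from 50.0 to 95.4, 96.5, and 92.8 CPM, and *Fbp2* rose from no counts to 0.297, 0.323, and 0.524 CPM, at least 29.5-fold, 32.0-fold, and 52.0-fold. *Pygl*, *Pck2*, and *Pgm1* differed between subsets.

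Several of the 10 genes are known targets of hypoxia-inducible factors and of MYC, and the other genes tied to these factors were read beside them. Of 22 hypoxia factors and targets outside glycolysis, 7, 6, and 6 were higher and 7, 8, and 9 were lower than in monocytes, with medians of -0.09, -0.13, and -0.09. Of all tested genes, 65.4%, 69.8%, and 70.9% passed the test in either direction. *Vegfa* had 9 counts over the monocyte group and stood at 42.6 ± 6.85, 14.3 ± 0.959, and 6.71 ± 1.44 CPM in the subsets (SD, n = 4), and *P4ha2*, with 3 monocyte counts, stood at 0.673, 0.836, and 0.781 CPM. *Ndrg1* fell from 157 ± 29.4 to 3.9, 1.69, and 2.5 CPM and *Ddit4* from 24.1 to 4.72, 2.44, and 3.9 CPM. *Vegfa*, *Epas1*, *Egln3*, *Ndrg1*, *Mxi1*, and *Ddit4* differed between subsets.

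Of 11 transcription regulators linked to glycolysis, 3, 3, and 2 were higher and 5, 6, and 4 were lower. *Myc* rose from 4.31 ± 0.636 CPM (SD, n = 3) to 53.7 ± 1.3, 37.7 ± 3.81, and 34.0 ± 3.52 CPM (SD, n = 4), by 3.65, 3.14, and 2.99 on the log2 scale, and *Mlxip* from 140.3 to 176, 192, and 193 CPM. *Usf1* fell from 188 to 98.8, 105, and 117 CPM and *Sp1* from 192 to 124, 123, and 98.3 CPM. *Txnip*, which restrains glucose uptake, was lower than in monocytes in DN (log2 -0.77) and SP macrophages (-0.28), and rose at both steps between subsets (log2 0.49 and 0.47), from 524 ± 61.1 to 737 ± 57.1 and 1025 ± 50.3 CPM.

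The genes whose mean levels over the 4 populations followed *Hk3* most closely were sought among 8307 genes with a mean of at least 10 CPM, by the Euclidean distance of centred log2 means. They were *Tbcc* (distance 0.1), *Snrnp70* (0.108), *Lss* (0.112), *Gde1* (0.117), and *Sat1* (0.138). *Snrnp70*, of a spliceosomal particle, stood at 232, 329, 421, and 545 CPM, and *Lss*, of sterol synthesis, at 6.12, 8.4, 12, and 14.2 CPM. These distances rest on 4 points and describe likeness in level alone.

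Some of the gene bodies overlap others on the opposite strand, and the sources used here do not give the strand setting of the count. *Pfkp* overlaps *Pitrm1* by 748 bases, and *Pitrm1* stood at 23 CPM in monocytes and at 37.4, 38.9, and 37.2 CPM in the subsets, the opposite direction. *Hk1* overlaps the antisense gene *Hk1os*, which stood at 1.49 CPM in monocytes and at no more than 0.253 CPM in the subsets. *Aldoa* overlaps *Fam57b*, at no more than 0.267 CPM. Processed copies of *Aldoa* and *Ldha* that were in the table (*Aldoart1*, *Aldoart2*, and *Ldha-ps2*) had means under 0.1 CPM in every population, and reads shared with them were not counted for either gene since only uniquely mapped reads were kept.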

How the data were processed

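The 10 genes and all gene lists were chosen with earlier results of these data known. Per the labels and the paper's methods, the authors used Trimmomatic 0.36 for trimming, STAR for alignment to GRCm38.p4, and HTSeq 0.6.1p1 for counting reads that mapped uniquely to a gene. The deposited counts are raw. The deposited normalized signal is each count divided by 1 size factor per library, and it was used only to check the table. The table lists genes with at least 16 reads in total. The libraries were strand-specific, and whether counting used strand is not given in the sources used here.

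Symbols, lengths, and coordinates came from GENCODE M21 (GRCm38). Groups came from the sample titles. Genes were kept with edgeR's filterByExpr by population (15802 genes), scaled with TMM, and fitted once over 15 libraries with edgeR 4.0.16 in R 4.3.3 (quasi-likelihood test, no replicate block), with Benjamini-Hochberg adjustment within each of 6 comparisons and a threshold of 0.05. Isozyme shares were compared by two-sided exact permutation tests with scipy 1.17.1. Counts of 0 were given a floor of 3 reads over the group, which covers counting error only, as the reads carry no molecular identifiers. In simulated counts, 66.5% of 200 genes changed by 1 log2 unit were recovered between DP and DN macrophages, among 15347 genes. Figures were drawn with matplotlib 3.10.9.

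All 10 genes were named. From each list, the genes past the threshold between macrophage subsets were named, with up to 2 each of the largest rises and falls in all subsets against monocytes, and for *Hk3* the 5 genes with the nearest profile. Alternatives were RLE and upper-quartile scaling, other filters, thinned counts, DESeq2 1.42.0, a 2-fold threshold, only the populations compared, replicate blocks, and leaving out each library. Shares by union exon length were added after seeing the data. *Slc2a12* was not analysed here, and 1 gene that the naming rule picked is not reported here.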

Additional observations from a re-analysis of the deposited data

Results flagged for a closer look

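In 36 groups of 4 libraries (the 10 genes and the 2 isozyme shares in each macrophage subset), 4 held a library far from the others, judged by the gap to its neighbour over the range of the group. Chance gives about 1 in 20 such groups. *Slc2a1* stood at 58.9 CPM in DN replicate 2, above 42.8 to 45.5 CPM in the others. *Hk3* stood at 232 CPM in SP replicate 2, where the others were all 226 CPM when rounded. *Pkm* stood at 426 CPM in DN replicate 4, below 446 to 449.8 CPM in the others, and at 484 CPM in DP replicate 1, above 434 to 441 CPM in the others.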

How the results depend on the processing

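The numbers of genes past the test (7, 7, and 7 of 10 against monocytes in DN, SP, and DP macrophages, then 2 from DN to SP, 1 from SP to DP, and 4 from DN to DP) were 4, 3, 5, 0, 0, and 0 when a change of at least 2-fold was also required. With single libraries left out they ran from 6 to 8, 7 to 9, 7 to 9, 1 to 2, 1 to 2, and 4 to 5. From SP to DP macrophages the count was 2, with *Hk3* added, under RLE, upper-quartile, a mean of at least 1 CPM, thinned counts, only the 2 populations, and DESeq2. Neither numbering of the replicates paired the samples throughout. The correlation of deviations of same-numbered macrophage libraries was -0.123 to 0.134 by the numbers in titles and -0.0888 to 0.161 by those in descriptions. By these numberings, 0 and 5 of 12 libraries correlated best with their own number. Macrophage libraries with unlike numbers reached 0.24 (DN replicate 2 with SP replicate 3). DP replicate 3 correlated with these at 0.184 and 0.134. By titles, DN replicate 3, SP replicate 1, and DP replicate 2 correlated with one another at 0.135 to 0.173. DN replicate 4, SP replicate 2, and DP replicate 4 did so at 0.128 to 0.161. DN replicate 1, SP replicate 4, and DP replicate 1 did so at 0.0582 to 0.219, although DP replicate 1 correlated more with SP replicate 3 (0.0945). These sets together hold all 12 macrophage libraries, each in 1 set. Whether such sets of libraries came from the same pools was not tested. A pairing outside these 2 numberings was not fitted. With a replicate block the counts were 7, 7, 7, 2, 1, and 4 by titles and 8, 8, 8, 2, 1, and 4 by descriptions, with *Slc2a1* added. The 2-fold threshold is left out of the following count, which covers 1440 member values under the alternatives on the p-value alone. Of these, 1358 kept direction and call, 10 lost the call, 37 gained it, and 35 changed sign, all in differences that passed on neither side.

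From DN to DP macrophages, *Hk2* (-0.02) gave 0.00, 0.02, 0.01, and 0.00 (RLE, upper-quartile, a mean of at least 1 CPM, DESeq2), *Slc2a1* (-0.01) gave 0.01, 0.04, 0.02, 0.00, and 0.01 (the same and only the 2 populations), and *Ldha* (0.00) gave -0.01 with either block. With libraries left out, signs turned within these ranges: from DN to DP, *Pkm* -0.01 to 0.05, *Hk2* -0.10 to 0.07, *Ldha* -0.09 to 0.06, and *Slc2a1* -0.06 to 0.11. From SP to DP they were *Pfkp* -0.09 to 0.00, *Pfkfb3* -0.10 to 0.04, *Hk2* -0.13 to 0.04, *Ldha* -0.05 to 0.11, and *Slc2a1* -0.04 to 0.09. From DN to SP they were *Hk2* -0.02 to 0.10 and *Slc2a1* -0.10 to 0.08, and for *Ldha* from monocytes to SP -0.03 to 0.30. The *Pfkl* share difference of 1.94 points from DN to SP was -1.3 points (adjusted exact permutation p = 0.51) with union exon lengths and 0.983 to 2.92 points with libraries left out. The cause was not tested. Upper-quartile scaling moved the median of all genes by 0.114 between monocytes and DP macrophages. With 3 or 4 pools a group, exact tests of shares could not pass after adjustment, and gene counts do not separate isoforms.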
